A study of Drosophila melanogaster with 3 samples.

Results

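The Dpr and DIP genes of Drosophila melanogaster encode cell-surface proteins of the immunoglobulin superfamily, and the question here was where the transcription factor CG10543 was found along these genes in the embryo. Members were all protein-coding genes whose symbol is dpr followed by a digit or begins with DIP-. The rule gave 32 of 13945 protein-coding genes on the 6 chromosome arms, 21 Dpr genes and 11 DIP genes. The data came from chromatin immunoprecipitation sequencing (ChIP-seq) of whole embryos of mixed sex, 0 to 24 h old, from a transgenic line that stably expresses CG10543 with enhanced green fluorescent protein (eGFP) at its C-terminus. Chromatin of 200 to 800 bp fragments was precipitated with an antibody against GFP in 3 biological replicates, which form 1 group. An untagged sample was not analysed here. No comparison between conditions was therefore possible, and binding of CG10543 and signal arising without it cannot be told apart. Whole embryos hold many cell types, so sites used in few neurons and sites not used cannot be told apart either.

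Dpr stands for defective proboscis extension response, and DIP for Dpr-interacting protein. A Dpr on one neuron binds a DIP on its partner, each DIP with its own subset of Dprs, and the pairs help neurons to find partners and to form and keep synapses. Well studied pairs are DIP-alpha with Dpr6 and Dpr10, DIP-gamma with Dpr11, and DIP-delta with Dpr12. Many of these genes are long, with large introns between a short first exon and the exons of the immunoglobulin domains.

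The authors deposited a list of 30000 ranked regions for each replicate and for the pool of the replicates. This length takes in weak regions. They also deposited a set of 7545 peaks selected by irreproducible discovery rate (IDR), a method that compares the ranks of peaks between replicates. These peaks were the 7545 strongest regions of the pooled list, so a place in the IDR set here equals a pooled rank of 7545 or better. Replicate 1 had 12593 regions at q-values below 0.01, replicate 2 had 7016 and replicate 3 had 7612. Each region has 1 summit, the base of its highest signal, and ranks are by the authors' signal value, 1 being the strongest. Read depth is unknown, and intervals below cover counting error only. Positions are on dm6.

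CG10543 peaks were nearly absent from the Dpr and DIP genes. An IDR summit lay within 500 bp of a transcription start site (TSS) of 2 of 32 members (6.25%; exact Clopper-Pearson 95% interval 0.766 to 20.8%), against 27.9% of all protein-coding genes. Inside the gene span 3 of 32 members held a summit (9.38%; 95% interval 1.98 to 25.0%), against 18.0% of all protein-coding genes. The 3 members held 1 summit each, so 29 of the 32 genes held none. The members' median span was 32.5 kb, against 2.17 kb over all protein-coding genes. Of the 18 members of 20 kb or more, 1 had a TSS summit (5.56%) and 3 a summit in the span (16.7%), against 47.9% and 58.1% of the 1013 protein-coding genes of that length. These shares compare genes within 1 experiment and were not tested, since the genes of a family are not replicates.

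**Figure D1:**
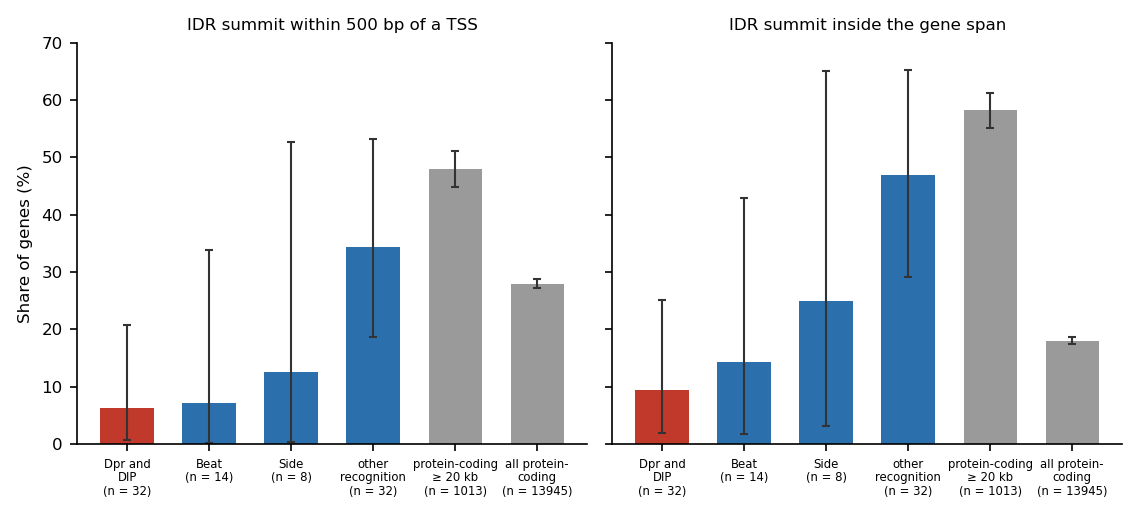
Share of genes (%, vertical axis) with an IDR summit within 500 bp of a TSS (left) and inside the gene span (right) for the Dpr and DIP genes, 3 lists of other recognition genes, protein-coding genes of 20 kb or more and all protein-coding genes. Bars give the share and whiskers its exact 95% interval; the Dpr and DIP bars stand at 6.25% and 9.38%, against 47.9% and 58.1% for genes of 20 kb or more.

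Per kb the gap was wider. The members' spans add up to 1579 kb and held 3 IDR summits, 0.00190 per kb (exact Poisson 95% interval 0.000392 to 0.00555). Protein-coding genes of 20 kb or more held 0.0422 per kb, 22.2-fold more than the members, and all protein-coding genes 0.0570 per kb, 30.0-fold more. Both ratios are to all 32 members. The 18 members of 20 kb or more held 0.00211 per kb (95% interval 0.000434 to 0.00616). Without DIP-lambda and dpr21, where the pooled list had no region, the members held 0.00279 per kb. The replicates showed the same. Among the 7545 strongest regions of each replicate, the member spans held 4 summits in replicate 1, 3 in replicate 2 and 2 in replicate 3. That is 0.00190 ± 0.000633 per kb, against 0.0571 ± 0.00367 per kb over all protein-coding genes (SD, n = 3 each). The value of every replicate for the members lay below the value of every replicate for all protein-coding genes, and the gap was larger than either SD. An IDR peak was also required to recur in the remaining pair of replicates. The dpr6 summit was then lost without replicate 1 and without replicate 2, which left 0.00127 per kb. All protein-coding genes also fell in these settings, to 0.0385 and 0.0374 per kb.

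**Figure D2:**
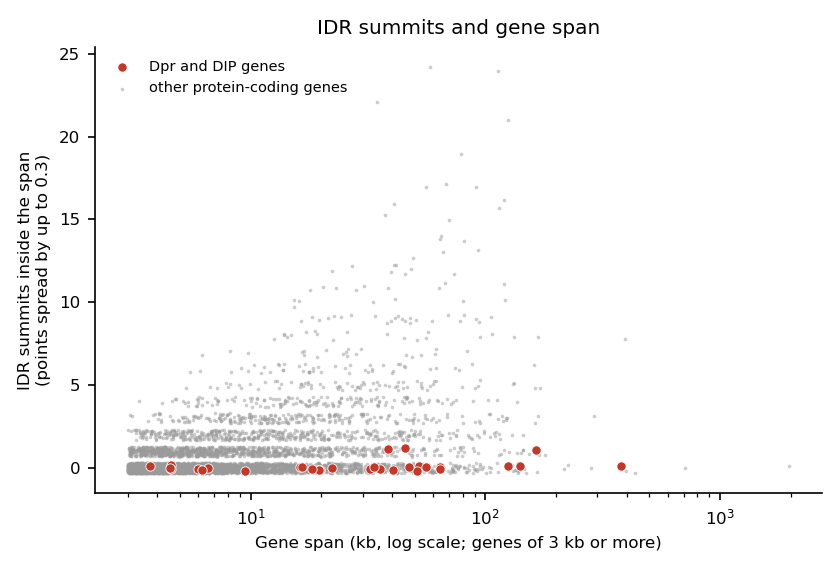
IDR summits inside the span (vertical axis) against gene span (kb, log scale) for Dpr and DIP genes and for all other protein-coding genes of 3 kb or more, 1 point a gene. The members lie at 0 or 1 summit over their whole range of spans, while other genes of similar span reach up to 24.

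The start sites were described first. dpr10 encodes a Dpr that motor neurons meet on their muscle targets through DIP-alpha, and its start was the only one with a summit at the TSS itself. The summit, at 3L 10186103, lay 5 bp inside the first exon of dpr10 (FBgn0052057, 3L, 10147454 to 10186108, minus strand). It ranked 4726 of 7545 with a pooled signal of 283. Its ranks were 5586 in replicate 1, 7173 in replicate 2 and 4392 in replicate 3, a mean of 5717 ± 1395 (SD, n = 3). All 3 replicates placed it among their 7545 strongest regions, and all 3 ranks lie in the weaker part of that range.

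The strongest summit near any member was found upstream of dpr14 (FBgn0029974, X, 7903704 to 7908286, minus strand). It lay at X 7908743, in intergenic sequence 457 bp before the dpr14 start. The nearest TSS, 188 bp away, was that of spidey (FBgn0029975, X, 7908931 to 7911885, plus strand), a steroid-metabolising enzyme gene that starts on the other strand. The pooled signal was 996 and the rank 379. Ranks were 567, 276 and 573 in replicates 1, 2 and 3, a mean of 472 ± 170 (SD, n = 3) so it was among the strongest regions of all 3 replicates. With each summit counted only for its nearest TSS, dpr14 dropped out and 1 of 32 members (3.13%) had a TSS summit, against 22.0% of protein-coding genes.

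Another pair of members missed the distance by little. The dpr20 summit at 3L 857832 lay 584 bp before its TSS, ranked 2846, and had ranks of 4135, 1917 and 4085 in replicates 1, 2 and 3. The dpr2 summit at 2L 10964688 lay 535 bp before its TSS and ranked 7463, near the end of the IDR set, with ranks of 10370, 5402 and 10100 in replicates 1, 2 and 3. At 500 bp the share was 6.25%, and at 1000 bp it was 12.5%, against 31.7% of all protein-coding genes. The dpr20 summit was seen by all 3 replicates among the strongest regions, the dpr2 summit by 1.

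Inside the genes, 2 summits were intronic. DIP-gamma, whose protein pairs with Dpr11 in the colour-vision circuit of the optic lobe, had a summit at 3R 28959268, 11104 bp from its TSS and in its 41.2 kb intron (FBgn0039617, 3R, 28925004 to 28970372, minus strand). It ranked 6408, and the nearest regions in replicates 1, 2 and 3 ranked 7860, 6314 and 6217, a mean of 6797 ± 922 (SD, n = 3). In replicate 1 a further region within 200 bp ranked 6384. This was the only summit in any member that lay over 1000 bp from every annotated TSS.

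dpr6, the second Dpr bound by DIP-alpha, had a summit at 3L 10092448, in an intron and 117797 bp from its own TSS (FBgn0040823, 3L, 9974651 to 10139360, plus strand). It lay 102 bp before the start of CG32053 (FBgn0052053, 3L, 10090170 to 10092346, minus strand), which sits within that intron. The rank was 5043 in the IDR set, and 2620, 7507 and 11152 in replicates 1, 2 and 3, a mean of 7093 ± 4281 (SD, n = 3). The replicates were spread most widely here, and replicate 3 placed the region outside its 7545 strongest. A further IDR summit lay 1953 bp before the dpr6 start, outside the span. dpr6 and dpr10 lie next to each other on 3L, tail to tail.

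The sequences at these 6 summits are given below, since they are all the peak sequence that the Dpr and DIP genes have within 1000 bp of a TSS or in a span. Each is read from the RefSeq copy of dm6 on the strand of the member gene, 5′ to 3′, as the summit base with 50 bases on each side. For dpr10, whose summit is in an exon, an equally long stretch directly before the TSS is shown. Capitals mark matches to the GATA hexamers TGATAA and AGATAA on either strand, the only motif of the 7 searched that was found in them.
dpr10, chr3L:10186109-10186209, minus strand: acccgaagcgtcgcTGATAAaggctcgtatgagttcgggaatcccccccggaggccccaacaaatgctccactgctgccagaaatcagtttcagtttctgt
dpr14, chrX:7908693-7908793, minus strand: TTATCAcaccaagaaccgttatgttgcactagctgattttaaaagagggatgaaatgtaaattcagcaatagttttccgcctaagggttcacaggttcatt
dpr20, chr3L:857782-857882, minus strand: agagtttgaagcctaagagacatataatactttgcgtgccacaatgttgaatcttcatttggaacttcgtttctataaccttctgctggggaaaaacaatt
dpr2, chr2L:10964638-10964738, minus strand: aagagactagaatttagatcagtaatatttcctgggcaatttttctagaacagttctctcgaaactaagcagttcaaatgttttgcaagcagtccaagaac
DIP-gamma, chr3R:28959218-28959318, minus strand: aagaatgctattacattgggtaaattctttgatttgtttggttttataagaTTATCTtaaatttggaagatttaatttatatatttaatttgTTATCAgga
dpr6, chr3L:10092398-10092498, plus strand: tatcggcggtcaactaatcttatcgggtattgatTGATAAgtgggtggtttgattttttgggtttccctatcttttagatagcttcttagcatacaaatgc

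The dpr10 stretch was the richest in G and C, with 54.5%, and the DIP-gamma window the poorest, with 20.8%. The other 4 had 35.6 to 37.6%. The median over windows of the same length at all 7545 IDR summits was 43.6%. A match is a description of the letters only. With 100 bases on either side of the summit, 28.2% of all IDR peaks held a GATA hexamer. Those windows are longer than the stretches printed here, and the dpr10 stretch leaves out its summit. The share is therefore no like-for-like background for these stretches.

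The pooled list holds the IDR peaks and weaker regions, so its share at start sites cannot be below that of the peaks. The pooled list had a region within 500 bp of a TSS of 17 of 32 members (53.1%; 95% interval 34.7 to 70.9%), against 49.0% of all protein-coding genes, a share near the background. Among genes of 20 kb or more it was 61.1% of the 18 members (95% interval 35.7 to 82.7%), against 79.2% of protein-coding genes. Of the 18 pooled regions at member TSSs, 2 were in the IDR set (11.1%; 95% interval 1.38 to 34.7%), against 41.7% of 9329 such regions over all protein-coding genes. Their median rank was 13157, against 9519 over all protein-coding genes. Several lay close to the start: 13 bp from it at DIP-theta, 28 bp at dpr12, 32 bp at dpr3, 33 bp at dpr19, 37 bp at dpr13, 56 bp at dpr5, 62 bp at dpr9 and 66 bp at dpr16. None of these 8 is in the IDR set.

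**Figure D3:**
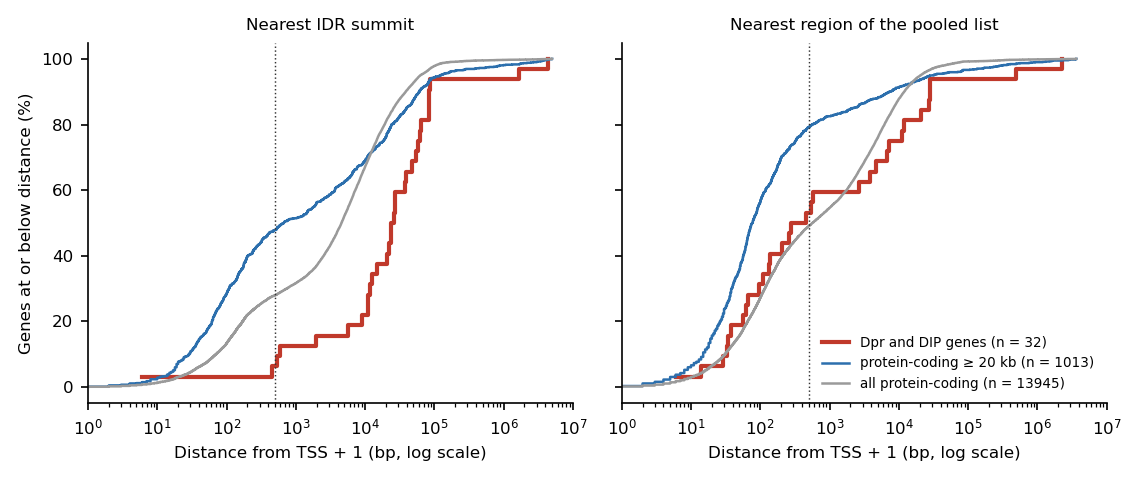
Cumulative share of genes (%, vertical axis) by distance from a TSS to the nearest IDR summit (left) and to the nearest region of the pooled list (right), in bp on a log scale, with a dotted line at 500 bp. The Dpr and DIP curve lies below both others for IDR summits from 500 bp to 10 kb, while for pooled regions it lies close to that of all protein-coding genes up to 1000 bp and below it from 5 kb to 20 kb.

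The median distance from a member's TSS to the nearest IDR summit was 24.8 kb, against 0.669 kb for protein-coding genes of 20 kb or more and 4.57 kb for all. The nearest pooled region lay at a median of 0.366 kb, against 0.0760 kb and 0.564 kb. An IDR summit was over 10 kb away for 25 of 32 members, against 32.9% of all protein-coding genes.

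Single replicates named further members. Counting the 7545 strongest regions of each replicate, 5 members had a TSS region in replicate 1 (dpr5, dpr10, dpr14, dpr19 and DIP-eta), 4 in replicate 2 (dpr2, dpr10, dpr14 and dpr19) and 3 in replicate 3 (dpr10, dpr14 and DIP-eta). The mean share was 12.5% ± 3.13, against 27.6% ± 2.89 over all protein-coding genes (SD, n = 3 each), and each of the 3 member values was below each of the 3 others. dpr10 and dpr14 were the only members found in all 3 replicates.

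dpr5 and dpr19 were strong in 1 replicate or 2 and weak or missing elsewhere. The dpr5 TSS region ranked 4332, 15207 and 11386 in replicates 1, 2 and 3, and 7822 in the pool, just past the 7545 peaks of the IDR set. At dpr19 the strongest TSS regions ranked 3686 in replicate 1 and 5991 in replicate 2, 249 and 279 bp from a TSS. No region of replicate 3 lay within 500 bp. The strongest pooled region there ranked 8858 and lay 33 bp from a TSS. Its summit was thus not within 200 bp of the summits of replicates 1 and 2. DIP-eta ranked 6980, 16016 and 7100 in replicates 1, 2 and 3, and 7739 in the pool. In the pooled ranking dpr5 and DIP-eta thus lay just outside the IDR set, and dpr19 lay further out.

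Of the genes of the pairs named above, dpr10 alone had its TSS region among the 7545 strongest of any replicate. The DIP-alpha TSS region ranked 11597, 22404 and 15957 in replicates 1, 2 and 3. The DIP-gamma TSS region ranked 7900 in replicate 1 and 21749 in replicate 2 and was missing in replicate 3. dpr6 had TSS regions at ranks 9703 and 13905 in replicates 1 and 3, dpr11 at rank 17604 in replicate 3 alone, and dpr12 and DIP-delta in none of the replicates.

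**Figure D4:**
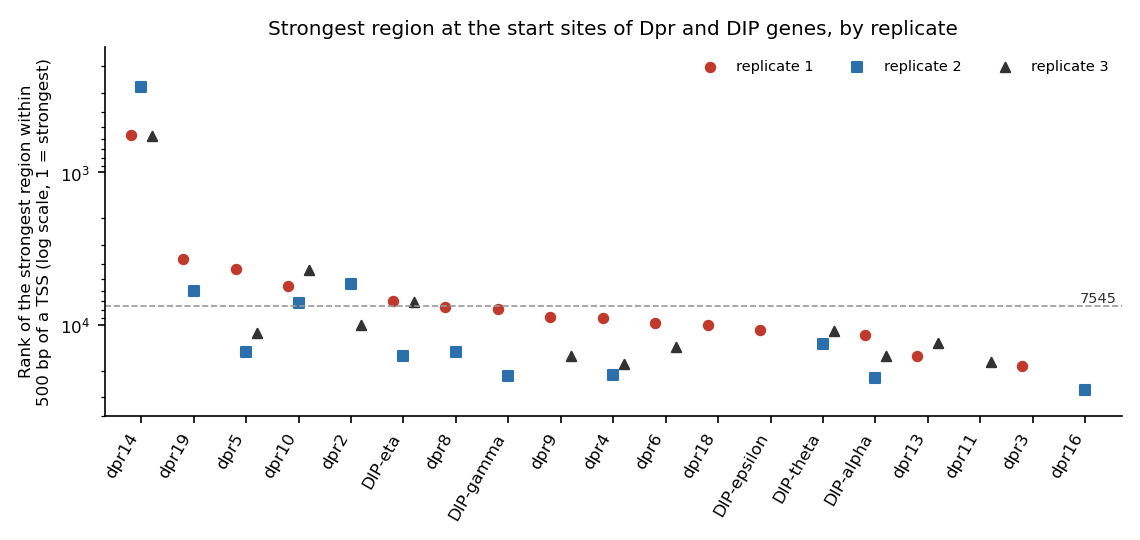
Rank of the strongest region within 500 bp of a TSS in each replicate (vertical axis, log scale, strongest at the top) for the 19 members with such a region in at least 1 replicate. The dashed line marks rank 7545; the dpr10 and dpr14 points lie above it in all 3 replicates, and most other points lie below it.

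Of the remaining members, dpr4 had TSS regions in all 3 replicates, at ranks 9031, 21395 and 18116. dpr8, dpr9, dpr13 and DIP-theta had one in 2 replicates, at ranks from 7637 to 16042. dpr3, dpr16, dpr18 and DIP-epsilon had one in a single replicate, at ranks from 10076 to 26616. The other 13 members had no TSS region in any replicate: dpr1, dpr7, dpr12, dpr15, dpr17, dpr20, dpr21, DIP-beta, DIP-delta, DIP-zeta, DIP-iota, DIP-kappa and DIP-lambda. dpr1, the founding member of the family, was named for a defect in the salt response of the proboscis.

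The introns, which make up 1465 kb of the 1579 kb of span, held 2 IDR summits, those of DIP-gamma and dpr6. That is 0.00137 per kb of intron (exact Poisson 95% interval 0.000165 to 0.00493), against 0.0426 per kb in genes of 20 kb or more and 0.0640 per kb in all protein-coding genes. In single replicates the density was 0.00137 ± 0.000683 per kb, against 0.0641 ± 0.00304 per kb over all protein-coding genes (SD, n = 3 each). A peak was again required to recur in the remaining pair of replicates. The value was 0.000683 without replicate 1 and without replicate 2, since dpr6 was then lost, and 0.00137 without replicate 3. All protein-coding genes then held 0.0440, 0.0414 and 0.0412 per kb of intron without replicates 1, 2 and 3.

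Long introns were no exception. The members have 39 introns of 10 kb or more in 17 genes, and 2 of these introns held an IDR summit (5.13%; 95% interval 0.627 to 17.3%), against 32.1% of the 1403 such introns of all protein-coding genes. A pooled region lay in 19 of the 39, against 76.2% over all protein-coding genes. Of the 39 introns, 8 belong to DIP-lambda and 3 to dpr21. Neither gene held a pooled region, so their introns lower both shares, and part of each gap rests on them. The largest single intron, 83.7 kb in DIP-lambda, and the 60.3 kb intron of dpr21 held no region of the pooled list. The 35.6 kb intron of dpr2, the 34.1 kb intron of dpr8 and the longest introns of dpr3 (27.3 kb), dpr12 (26.9 kb), dpr1 (26.8 kb), DIP-alpha (26.3 kb) and dpr11 (26.0 kb) held no IDR summit.

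Counts of pooled regions, IDR peaks included, differed within the family. The pooled list placed 99 regions in member spans, 0.0627 per kb (95% interval 0.0509 to 0.0763), against 0.237 per kb over all protein-coding genes. Of the 99, 11 lay within 500 bp of the member's own TSS, 10 within 500 bp of another gene's TSS, 76 elsewhere in introns and 2 in exons. The median rank of the intronic ones was 23305 and that of the ones at the own TSS 13844. A summit in all 3 replicates lay within 200 bp of 20 of the 99. In the IDR set were 3 of the 99 (3.03%; 95% interval 0.629 to 8.60%), against 23.8% of the pooled regions in all protein-coding spans.

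dpr6 held 17 of the 99 pooled regions, dpr8 held 11, dpr12 held 9, and dpr10, dpr11 and DIP-alpha held 7 each. dpr1 and dpr9 held 5 each, dpr13 and DIP-gamma 4, and dpr2, DIP-beta and DIP-theta 3. Per kb, the densest were dpr9 with 0.224, dpr14 with 0.218, dpr4 with 0.211 and dpr10 with 0.181 pooled regions per kb, all below the 0.237 of all protein-coding genes. The strongest intronic region that missed the IDR set was in dpr8, at rank 8301. Dpr genes together had 0.0865 pooled regions per kb and DIP genes 0.0319. The DIP value rests on the length of DIP-lambda, which held none: without it the other 10 DIP genes had 0.0709 per kb (95% interval 0.0444 to 0.107), and without dpr21 the other 20 Dpr genes had 0.101 (0.0794 to 0.126).

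**Figure D5:**
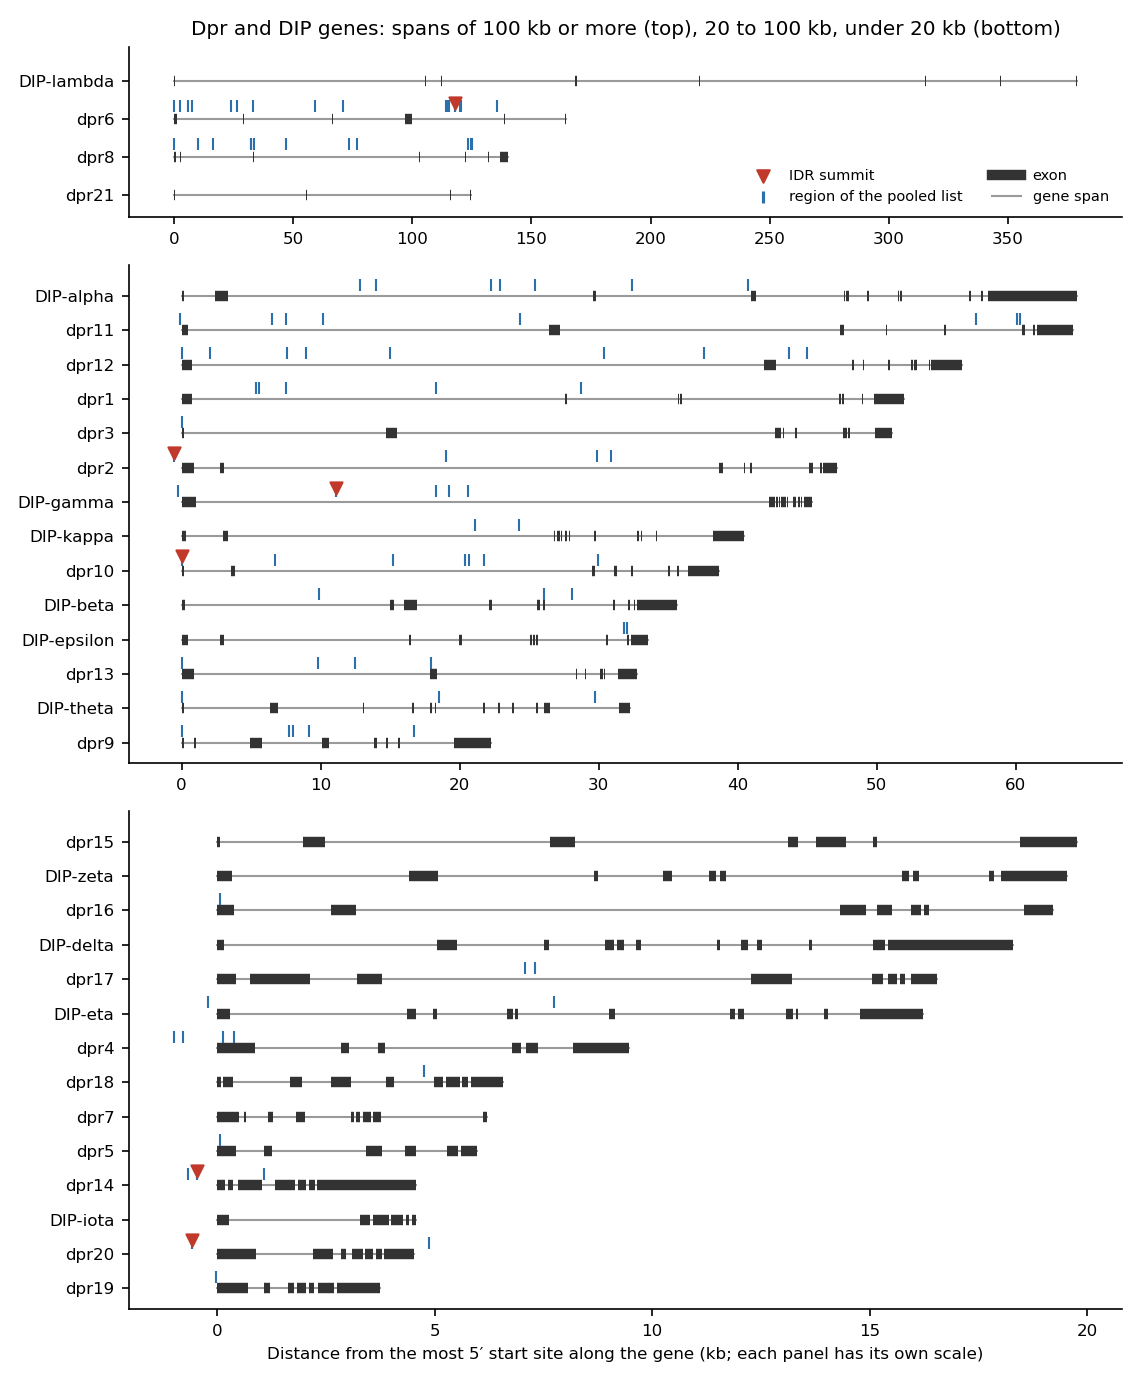
The 32 Dpr and DIP genes drawn from their most 5′ start site, with exons as boxes, IDR summits as red triangles and regions of the pooled list as blue ticks, each shown up to 1 kb beyond the span (horizontal axis in kb, 1 scale per panel). The 6 red triangles lie at dpr2, dpr6, dpr10, dpr14, dpr20 and DIP-gamma, and DIP-lambda and dpr21 carry no tick.

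DIP-lambda and dpr21 take up much of the family's length and stood apart. DIP-lambda spans 379 kb (FBgn0267428, 2R, 326768 to 705848) and dpr21 125 kb (FBgn0260995, 2R, 3066499 to 3191011). The nearest pooled region was 2240339 bp from the DIP-lambda TSS and 499392 bp from the dpr21 TSS. Replicate 2 placed 1 region of its 30000 in DIP-lambda, and the other replicates placed none in either gene. The part of read placement in this was not tested. Without both genes the spans came to 1076 kb, with 0.00279 IDR summits and 0.0920 pooled regions per kb, still below the values of all protein-coding genes.

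Members without any pooled region in their span numbered 9: besides DIP-lambda and dpr21 these were dpr7, dpr15, dpr19, dpr20, DIP-delta, DIP-zeta and DIP-iota. dpr3, dpr4, dpr5, dpr14, dpr16, dpr17, dpr18, DIP-epsilon, DIP-eta and DIP-kappa had 1 or 2. dpr7, the only member on chromosome 4, was 27229 bp from the nearest IDR summit and from the nearest pooled region. DIP-zeta, dpr20 and dpr21 had no region in the span in any replicate.

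The promoters of most Dpr and DIP genes held more G and C than the median protein-coding promoter. In windows of 250 bases before to 50 after the most 5′ TSS, the median share of G and C was 49.7% (26.7 to 59%), against 45% for protein-coding genes of 20 kb or more and 38% for all. Of the 32 members, 26 had 45% or more, against 23.2% of all protein-coding genes and 50.4% of those of 20 kb or more. The highest values were 59% at dpr8 and DIP-beta and 58.7% at dpr12 and DIP-eta. The lowest were 26.7% at dpr21, 29.7% at dpr19, 31% at dpr7 and 36% at dpr14. Genes with a TSS summit had a median of 38.3%. The part of base composition in the ChIP signal was not tested.

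The 7 motifs were counted in the same windows, and of these DRE and Motif 1 are known from housekeeping promoters. The DNA replication-related element DRE (TATCGATA) was in 1 of 32 member promoters, that of dpr14 (3.13%; 95% interval 0.0791 to 16.2%), against 9.36% of all protein-coding promoters and 13.0% of those with a TSS summit. Motif 1 (GGTCACACT), the site of M1BP, and the cAMP response element (TGACGTCA) were in none (95% interval 0 to 10.9%), against 6.05% and 0.437% of all. For each of the 7 motifs the members' 95% interval contains the share over all promoters. The GAGA repeat (GAGAGAG) was in 5 of 32 (dpr6, dpr9, dpr13, dpr20 and DIP-gamma; 15.6%; 95% interval 5.28 to 32.8%), against 5.87% of all. The Zeste site was in 15 of 32 (95% interval 29.1 to 65.3%), against 34.3% of all. The GATA hexamers were in 8 of 32 (95% interval 11.5 to 43.4%), against 36.1%. The CA repeat (CACACACA) was in 2 of 32 (95% interval 0.766 to 20.8%), against 4.02%. Both strands were searched, and the GAGA and Zeste patterns can share bases.

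Genes of other recognition systems were set beside the Dpr and DIP genes. Beat and Side proteins are receptor and ligand families that steer motor axons. Of 14 Beat genes 1 had a TSS summit (beat-IIIc) and 2 a summit in the span, beat-Ib with 8 and beat-VII with 1. Of 8 Side genes 1 had a TSS summit (side-IV) and 2 a summit in the span, side-IV with 2 and side with 1. Per kb these families held 0.0171 and 0.00720 IDR summits, against 0.00190 in the Dpr and DIP genes. The Beat value rests on beat-Ib: the other 13 Beat genes held 1 summit in 468 kb, 0.00214 per kb, near the value of the Dpr and DIP genes. The Side value rests largely on side-IV, which held 2 of the 3 Side summits in 13.6 kb. The exact Poisson interval for Side, 0.00148 to 0.0210 per kb, overlaps that of the Dpr and DIP genes, 0.000392 to 0.00555 per kb. The interval for Beat with beat-Ib, 0.00784 to 0.0325 per kb, lies above it. Among 32 further neuronal surface genes, 11 had a TSS summit (34.4%) and 15 a summit in the span (46.9%), with 0.0200 per kb. Over all protein-coding genes the values were 27.9%, 18.0% and 0.0570 per kb. Over protein-coding genes of 20 kb or more they were 47.9%, 58.1% and 0.0422 per kb. Of the Dscams, Robos, teneurins and cadherin N in this list, only robo2, Ten-a and Ten-m had a summit at a TSS or in the span. The highest counts were in kirre, which marks sites of cell fusion and sorting, with 8, and in caps, a leucine-rich repeat protein of target recognition, and fra, the Netrin receptor, with 5 each. cDIP, a secreted protein that binds Dprs and DIPs in common, had none. The differences between these lists were not tested.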

How the data were processed

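ChIP-seq of CG10543-eGFP in whole embryos gave 3 replicates of 1 group. Each replicate and their pool were called on dm6 against 1 shared control alignment, per the file headers; the sources used here do not give the aligner or the peak caller. The deposited signal values of regions were used only for ranks within a list, and the authors' −log10 q-values only for counts. The dm3 lists were not used.

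Genes came from Ensembl release 115 (BDGP6, dm6 coordinates) without transposable elements, sequence from the RefSeq copy of Release 6. A gene had a TSS summit when any of its TSSs had a summit at 500 bp or less; introns are span outside every exon of the gene. Replicates were represented by their 7545 strongest regions, and summits within 200 bp were matched. Intervals are exact binomial or Poisson at 95%. No test was made: there is 1 group, and genes are not replicates. P-values are therefore not given.

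Members and lists were chosen with earlier results of these data known. By rule every member was named, with full values for those with an IDR summit, as were the 3 genes of each other list with most summits; all 54 list symbols matched, and the remaining names, with the sequences at dpr2 and dpr20, were picked with their values in view. Counting rules were tested on simulated data, with summits planted in 200 genes for each rule. Python 3.11.15, numpy 2.4.6, scipy 1.17.1 and pandas 2.3.3 were used.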

Additional observations from a re-analysis of the deposited data

How the results depend on the processing

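The members' shares and densities lay below those of all protein-coding genes in each of the 35 values computed under an alternative. The strongest 7545 pooled regions were the IDR summits themselves, so that replacement changed nothing and is not among the 35. The next values moved by more than 1 SD over the replicates. With a TSS distance of 1000 bp the share of members with a TSS summit was 12.5%. With the 3772 strongest IDR peaks, the member spans held 0 summits per kb, 0 intronic summits per kb of intron and 0 summits per gene, against 0.0273, 0.0303 and 0.189 over all protein-coding genes. Extending spans by 1000 bp gave 0.00365 summits per kb and 0.188 per gene, against 0.0816 and 0.726 over all protein-coding genes. The next alternatives were chosen after seeing the data. Members with a pooled region in their span had 0.00300 summits per kb, 0.00220 intronic summits per kb of intron and 0.130 per gene. All protein-coding genes with such a region had 0.0813, 0.0806 and 1.10. Leaving out dpr21 and DIP-lambda gave 0.00279 summits per kb and 0.00207 intronic summits per kb of intron. Leaving out each replicate in turn moved the members' values by no more than 1 SD. The members' span density was 0.00127 to 0.00190 per kb, their intronic density 0.000683 to 0.00137 per kb and their mean 0.0625 to 0.0938 summits per gene. Their share with a TSS summit stayed at 6.25%, but the background fell, so this gap narrowed. Over all protein-coding genes the share fell from 27.9% to 22.5%, 19.3% and 18.2% without replicates 1, 2 and 3. The exact interval of the members' share, 0.766 to 20.8%, contains the values without replicate 2 and without replicate 3. It does not contain the value without replicate 1. Of the 54 genes in the other lists, 13 had a TSS summit and 8 to 12 with a replicate left out. Of the 4 summits in a span or at a TSS, 3 had a summit within 200 bp among the 7545 strongest regions of all 3 replicates, 2 of them within 100 bp; among all listed regions each of the 4 had one in every replicate. Leaving out DIP-lambda, dpr21 or beat-Ib from its family was also chosen after seeing the data. The depth is unknown, so elsewhere a missing region means none among the 30000 listed. No paired analysis was possible because there is 1 group.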
